A study of Mus musculus with 12 samples.

Results

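Heme synthesis was examined in libraries labelled as bone endothelial cells (BECs), through 9 of its genes, taken by name from a table of 37620 genes. All 9 were present and all 9 passed the filter on low counts in every comparison. The members were Alas1, Alas2, Alad, Uros, Urod, Cpox, Ppox and Fech, which encode enzymes of the pathway, and Slc25a37, which encodes an iron importer.

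BECs were labelled as freshly isolated from tibia of C57/Bl6 mice, an inbred laboratory strain with no engineered allele named in the labels, and were purified by endomucin, a surface protein of bone capillaries. Female and male mice of 2 or 65 weeks made 4 groups of 3 libraries, none of which carried a treatment in its label. The methods of the study describe choosing the samples of each set by RNA quality. The labels do not say whether the 3 libraries of a group came from separate animals, so p-values measure the spread between these libraries. Total counts per library ran from 26044743 to 44569600, and levels are given as CPM, the counts of a gene scaled by the total of its library.

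Heme is an iron-containing ring that carries oxygen in hemoglobin and serves as a cofactor in respiratory enzymes of most cells. Its synthesis begins in the mitochondrion with the joining of glycine and succinyl-CoA by 5-aminolevulinate synthase, passes through the cytosol and ends in the mitochondrion, where iron is inserted. Most cells use the housekeeping synthase Alas1, whereas developing red cells use Alas2. Red cell precursors make most of the heme in bone marrow.

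The cell type given in the labels was compared with marker transcripts. Emcn, which encodes endomucin, was measured at 115 to 227 CPM in the 6 libraries of 2 weeks and at 2.80 to 6.98 CPM in the 6 libraries of 65 weeks. Cdh5, an adhesion protein of endothelial junctions, was at 431 to 789.6 CPM at 2 weeks and at 8.92 to 14.3 CPM at 65 weeks. All 17 endothelial markers tested were lower at 65 weeks in each sex (edgeR adjusted p under 0.05). Erythroid transcripts were present in every library: 15 red cell markers summed to between 6039 and 13370.1 CPM, and the globins to between 24659 and 47861 CPM. None of the 15 red cell markers was at 0 in any library. Slc4a1 was the largest part of their sum, at 3052 to 6236 CPM. In bulk libraries, fewer cells of a type and less RNA per cell cannot be told apart. The summed neutrophil markers ran from 5794 to 8063 CPM at 2 weeks and from 13356 to 28990.1 CPM at 65 weeks. B cell markers ran from 524 to 759.9 CPM at 2 weeks and from 7316 to 18997 CPM at 65 weeks. Most of the 65-week sum was 1 gene, Ighm, at 266 to 402 CPM at 2 weeks and 6432 to 17744 CPM at 65 weeks. Of 10 B cell markers, 8 were higher in each sex, beside 30.2% of all genes in females and 27% in males. The other 2, Ebf1 and Vpreb3, had differences below 0 in both sexes and did not pass the test. The marker sums share each library's total with the members, and their part in the age differences below was not tested.

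The 9 members together held 0.350% to 0.737% of the counts of a library, and Alas2 alone made up 29.7% to 35.7% of these counts. To compare levels between genes, CPM was divided by the length of the canonical transcript. On this scale Alas2 was the highest of the 9 in each group, with mean levels of 829.9 CPM per kb for females and 737 for males of 2 weeks, and of 1018 for females and 953 for males of 65 weeks. Slc25a37 followed at 258, 177, 395 and 338 CPM per kb and Cpox at 184, 149, 259 and 243 CPM per kb, in the same order of groups. The ranges of Alas2 and Slc25a37 did not overlap in any group, whereas those of Slc25a37 and Cpox overlapped in each group except 65-week females. Fech, Urod, Alad, Ppox and Uros came next in each group, and their neighbouring ranges overlapped in many cases but in none of the 65-week females. Alas1 was the lowest in each group, at 16.6, 16.2, 16.9 and 22.0 CPM per kb, and its libraries did not overlap those of Uros, the next gene. Per length, the red cell isoenzyme Alas2 stood 32.8 to 72.6 times above the housekeeping isoenzyme Alas1 in each library. For comparison, the endothelial gene Cdh5 was at 147 CPM per kb at 2 weeks and 2.93 at 65 weeks in females, and at 183 and 3.16 in males.

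Alas1 (ENSMUSG00000032786) spans 106110642 to 106135734 on the minus strand of chromosome 9, and Alas2 (ENSMUSG00000025270) spans 149330371 to 149353634 on the plus strand of chromosome X in GENCODE M39 (GRCm39). Alas1, the synthase of most cells, was measured at 57.5, 60.0 and 52.6 CPM in females of 2 weeks (replicates 1 to 3) and at 54.6, 51.2 and 59.7 CPM in males of that age. The libraries of 65-week females held 50.7, 58.1 and 64.7 CPM, and those of 65-week males held 64.9, 88.3 and 72.4 CPM. The 65-week males were above each library of 2-week males, while the females of both ages overlapped. Alas1 was higher by 0.56 on the log2 scale at 65 weeks in males (SE 0.132, edgeR adjusted p = 0.00804) and did not pass the test in females (0.16, SE 0.101, edgeR adjusted p = 0.191).

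Alas2, the red cell isoenzyme encoded on the X chromosome, was at 1749, 1363 and 1959 CPM among females of 2 weeks and at 1250.3, 1768 and 1482 CPM among males of 2 weeks. At 65 weeks it was at 2197, 2199 and 1826 CPM in females and at 2173, 2234 and 1418 CPM in males. The ages overlapped in both sexes, since 65-week female replicate 3 lay below the highest 2-week female library and 65-week male replicate 3 lay below 2 of the 2-week male libraries. Alas2 was higher by 0.43 at 65 weeks in females (SE 0.153, edgeR adjusted p = 0.0411). In males the difference of 0.50 did not pass the test (SE 0.225, edgeR adjusted p = 0.0953). The call in females was lost when either of replicates 1 and 2 of either age was left out, with edgeR adjusted p between 0.0795 and 0.122.

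**Figure D1:**
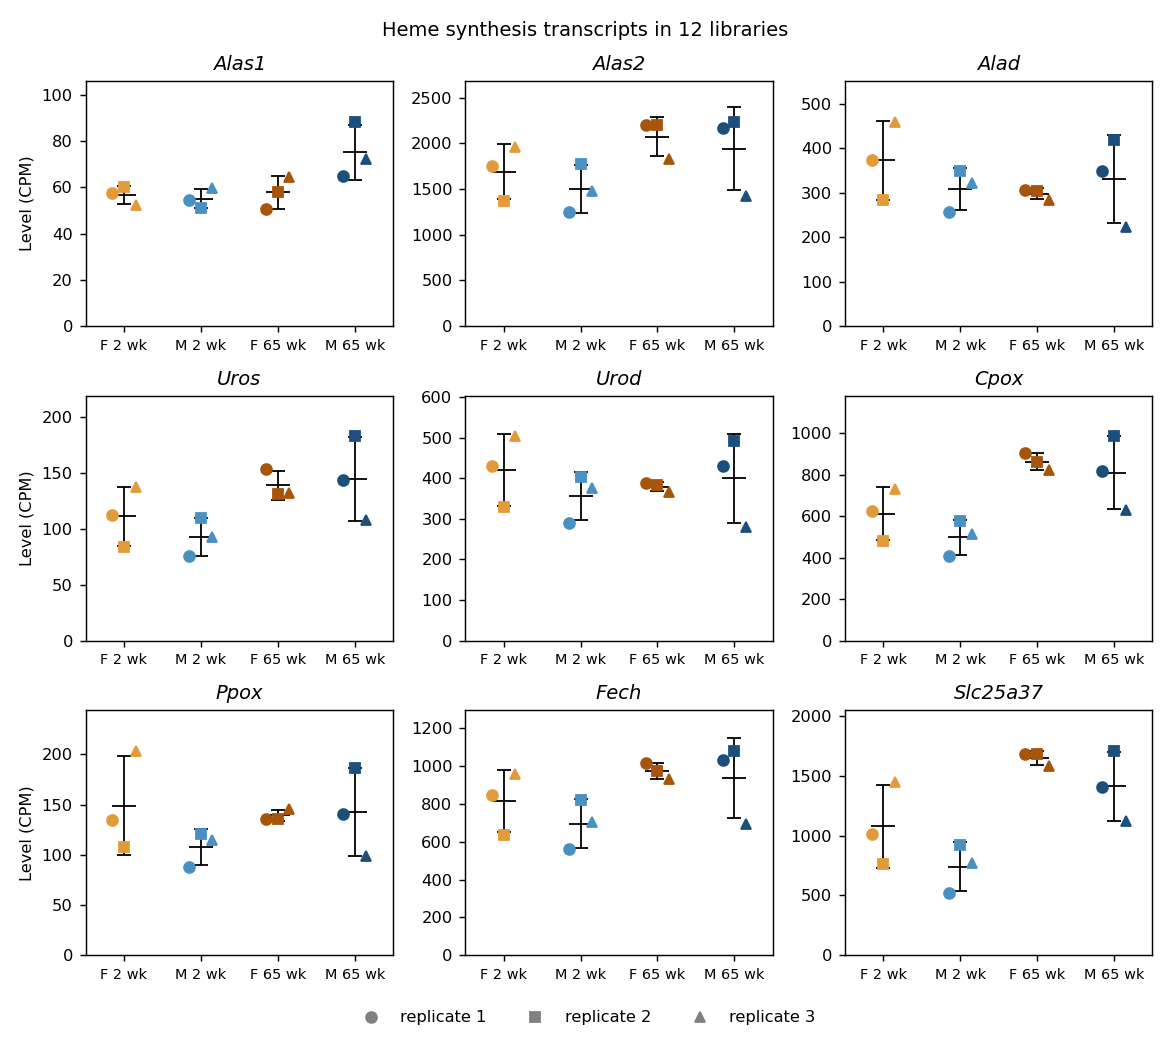
CPM of the 9 members in each library (y axis, from 0 in each panel), by group on the x axis (F, female; M, male; wk, weeks). Symbols are replicates, horizontal lines are group means and error bars are SD (n = 3); Alas1 in 65-week males lay at 64.9 to 88.3 CPM, above the 51.2 to 59.7 CPM of 2-week males, and Cpox and Slc25a37 lay higher at 65 than at 2 weeks within each sex.

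The ratio of the isoenzymes within a library does not depend on the scaling between libraries. Alas2 counts were 30.4, 22.7 and 37.3 times those of Alas1 in 2-week females, and 22.9, 34.5 and 24.8 times in 2-week males. They were 43.3, 37.9 and 28.2 times in 65-week females and 33.5, 25.3 and 19.6 times in 65-week males. The mean log2 ratio differed by 0.10 between 65 and 2 weeks, by 0.28 in females and by -0.08 in males. This was within the spread between libraries (two-sided exact permutation within sex over 400 relabelings, p = 0.605).

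The start regions of the isoenzymes are shown because the levels of Alas1 and Alas2 varied differently between libraries. RefSeq windows of 300 bases on GRCm38.p6, 250 before and 50 after an annotated start, were found for 7 of the 8 members looked up. Capitals mark, on either strand, the GATA word (GATA with A or T before it and A or G after it), the CACCC-type word CCNCNCCC and the palindrome-like word GCATGCGC of the NRF1 type, where matches may overlap. The Alas2 window lies at chrX:150547167-150547466 on the plus strand and the Alas1 window at chr9:106247905-106248204 on the minus strand.
Alas2: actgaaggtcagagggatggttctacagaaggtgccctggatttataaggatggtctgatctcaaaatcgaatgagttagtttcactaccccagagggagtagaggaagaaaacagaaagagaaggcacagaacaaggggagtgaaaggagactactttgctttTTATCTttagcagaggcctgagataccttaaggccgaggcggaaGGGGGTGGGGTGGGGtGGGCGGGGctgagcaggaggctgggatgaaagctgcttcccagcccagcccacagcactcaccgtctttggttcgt
Alas1: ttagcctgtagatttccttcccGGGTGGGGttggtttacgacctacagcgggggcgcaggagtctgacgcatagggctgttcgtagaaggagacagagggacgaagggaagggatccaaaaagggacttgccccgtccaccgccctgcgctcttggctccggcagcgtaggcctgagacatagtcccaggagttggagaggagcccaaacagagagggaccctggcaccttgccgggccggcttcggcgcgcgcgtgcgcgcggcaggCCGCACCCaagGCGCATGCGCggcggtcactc
The Alas2 window held 1 GATA word, 86 bases before the start, and 4 CCNCNCCC words that overlap in part. The Alas1 window held no GATA word, 2 CCNCNCCC words and 2 overlapping matches of GCATGCGC. Of all 32851 windows, 29.8% held a GATA word, 49.5% held CCNCNCCC and 2.71% held GCATGCGC. Among the 10 windows of the 7 members, 3 held a GATA word, 9 held CCNCNCCC and 2, both of Alas1, held GCATGCGC. The 2 windows of Alas1 overlap, as do the 2 of Alad. The same bases are therefore counted in both windows, including the GCATGCGC matches, and these counts are not of separate sites. A match describes letters and does not show that a factor binds there.

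Alad condenses 5-aminolevulinate to porphobilinogen, and its difference between ages did not pass the test in either sex. It was measured at 374, 283 and 459 CPM among females of 2 weeks and at 256, 348 and 322 CPM among males of 2 weeks. At 65 weeks it was at 307, 303 and 283 CPM in females and at 349, 419 and 223 CPM in males. Its age difference was -0.19 in females (SE 0.171, edgeR adjusted p = 0.359) and 0.23 in males (SE 0.245, edgeR adjusted p = 0.462). The spread was wide among 2-week females and 65-week males and narrow among 65-week females.

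Uros closes the ring of uroporphyrinogen, and Urod removes carboxyl groups from it. Uros was at 112, 83.9 and 137 CPM in the 2-week libraries of females and 75.7, 109 and 92.3 CPM in those of males, and at 154, 131 and 132 CPM in the 65-week libraries of females and 143, 182 and 108 CPM in those of males. The ages overlapped in both sexes, in males only through 65-week male replicate 3. Uros was higher by 0.77 at 65 weeks in males (SE 0.223, edgeR adjusted p = 0.0203), a call lost in 4 of the 6 fits that left out 1 library (edgeR adjusted p from 0.0533 to 0.0760). In females the difference of 0.45 did not pass the test (SE 0.179, edgeR adjusted p = 0.0583). Urod was at 429, 328 and 503 CPM in the 2-week libraries of females and 289.8, 404 and 376 CPM in those of males, and at 389, 382 and 367 CPM in the 65-week libraries of females and 429, 492 and 279 CPM in those of males. The 65-week females lay within the range of the 2-week females, and the 2-week males lay within the range of the 65-week males. The age difference of Urod was -0.02 in females (SE 0.155, edgeR adjusted p = 0.931) and 0.29 in males (SE 0.236, edgeR adjusted p = 0.322).

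Cpox and Ppox carry out the oxidations that lead to protoporphyrin. Cpox (ENSMUSG00000022742) spans 58490414 to 58537999 on the plus strand of chromosome 16 in GENCODE M39. Cpox was at 624, 482 and 734 CPM among females of 2 weeks and at 406, 576 and 513 CPM among males of 2 weeks. At 65 weeks it was at 904, 863 and 825 CPM in females and at 817, 986 and 631 CPM in males. The ages did not overlap within either sex. Cpox was higher by 0.62 in females (SE 0.155, edgeR adjusted p = 0.00875) and by 0.83 in males (SE 0.207, edgeR adjusted p = 0.0109), and the call held without any single library in both sexes. Ppox was at 135, 108 and 203 CPM in the 2-week libraries of females and 87.7, 121 and 115 CPM in those of males, and at 136, 136 and 146 CPM in the 65-week libraries of females and 141, 187 and 99.2 CPM in those of males. The age ranges overlapped in both sexes. The age difference of Ppox was 0.03 in females (SE 0.216, edgeR adjusted p = 0.908) and 0.53 in males (SE 0.244, edgeR adjusted p = 0.101). Exons of Ppox share 3277 bases with B4galt3 on the opposite strand in GENCODE M39, and the use of strand in counting is not given in the sources used here, so reads of the pair could be split. B4galt3 averaged 27.6 CPM. Urod shares 3440 exon bases with Zswim5, which averaged 1.22 CPM.

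The remaining members with a GATA word were Uros and Cpox. The Uros window shown is the more downstream of 2 annotated starts, at chr7:133702451-133702750 on the minus strand, and the Cpox window lies at chr16:58669958-58670257 on the plus strand. Capitals mark the words given above.
Uros: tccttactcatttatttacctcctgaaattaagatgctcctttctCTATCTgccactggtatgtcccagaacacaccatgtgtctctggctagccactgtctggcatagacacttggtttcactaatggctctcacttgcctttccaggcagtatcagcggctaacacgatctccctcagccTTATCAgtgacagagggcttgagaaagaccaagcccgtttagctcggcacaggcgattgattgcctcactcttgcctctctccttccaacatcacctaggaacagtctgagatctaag
Cpox: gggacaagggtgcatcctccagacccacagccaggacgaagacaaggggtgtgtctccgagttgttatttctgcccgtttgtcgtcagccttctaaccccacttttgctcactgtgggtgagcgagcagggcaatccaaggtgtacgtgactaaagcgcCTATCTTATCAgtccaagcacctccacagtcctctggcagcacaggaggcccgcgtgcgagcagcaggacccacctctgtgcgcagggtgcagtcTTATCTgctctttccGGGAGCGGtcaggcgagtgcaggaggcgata
Uros held 2 GATA words in this window and none in the other, and Cpox held 3. The windows of Alad, Urod, Ppox and Alas1 held none, which says only that these letters are not in these windows, and no test was made.

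Fech inserts iron into protoporphyrin in the last step, and Slc25a37, also called mitoferrin-1, brings that iron into the mitochondrion. Fech was at 847, 635 and 957 CPM among females of 2 weeks and at 561, 819 and 702 CPM among males of 2 weeks. At 65 weeks it was at 1018, 975 and 934 CPM in females and at 1034, 1079.5 and 696 CPM in males. The ages overlapped in both sexes. In females the lowest 65-week library lay below the highest of 2 weeks, and in males replicate 3 of 65 weeks lay below replicates 2 and 3 of 2 weeks. The age difference of Fech was 0.39 in females (SE 0.154, edgeR adjusted p = 0.0555) and 0.56 in males (SE 0.221, edgeR adjusted p = 0.0635), and neither passed the test.

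Slc25a37 (ENSMUSG00000034248) spans 69479297 to 69522561 on the minus strand of chromosome 14 in GENCODE M39. It showed the largest age difference of the 9 members in females and in males. It was at 1013, 763 and 1450.5 CPM among females of 2 weeks and at 522, 923 and 773 CPM among males of 2 weeks. At 65 weeks it was at 1685, 1679.7 and 1578 CPM in females and at 1402, 1706 and 1123 CPM in males. The means were 1076 ± 348 CPM and 739 ± 203 CPM at 2 weeks and 1648 ± 60.2 CPM and 1410.3 ± 291 CPM at 65 weeks (SD, n = 3 each), females first. The ages did not overlap within either sex. Slc25a37 was higher by 0.74 in females (SE 0.216, edgeR adjusted p = 0.0178) and by 1.05 in males (SE 0.246, edgeR adjusted p = 0.00789). In females the call was lost without 2-week female replicate 1 (0.66, edgeR adjusted p = 0.0516).

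Counted over the set, 3 of 9 members were higher at 65 weeks in females (Alas2, Cpox and Slc25a37) and 4 of 9 in males (Alas1, Uros, Cpox and Slc25a37), and none was lower. Of all genes tested, 59.7% passed the test in females and 30.2% were higher. In males 55.5% passed and 27% were higher. A large share of all genes thus differed between the ages, and the counts of members stand against these shares. The marker sums given above differed between the same libraries, and their part was not tested. The median log2 difference of the 9 members was 0.39 in females, beside 0.0056 over all genes, and 0.56 in males, beside 0.0080. No member had 6 libraries of one age wholly above or below the 6 of the other, whereas 46.7% of genes did.

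These counts moved with single libraries. The shares of all genes given beside them here cover both directions, and the share higher alone was not counted for these fits. Without 2-week female replicate 3, the highest of its group in 8 members, 5 of 9 were higher in females (56.5% of all genes passed). Without 2-week female replicate 1 only Cpox was higher (48.1%). Without 2-week female replicate 2, Cpox and Slc25a37 were higher and Alad, at -0.40, was lower (edgeR adjusted p = 0.0109), where 52.5% of all genes passed. Without 65-week male replicate 3, the lowest of its group in 8 members, all 9 were higher in males (62% of all genes passed). That library also held the lowest erythroid sum of the 65-week libraries, 8149.6 CPM.

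**Figure D2:**
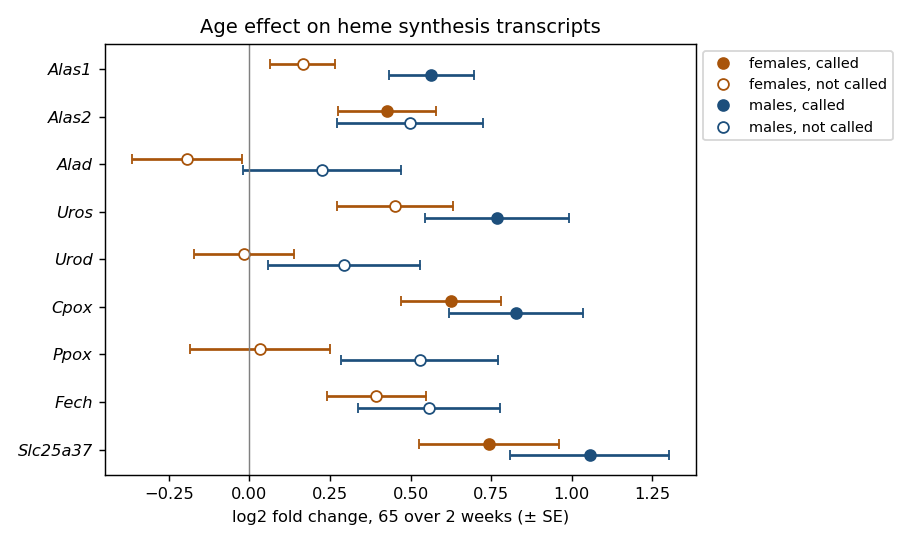
Log2 fold change of each member between 65 and 2 weeks (x axis) with its SE (bars), in females and males. Filled points passed the edgeR test at an adjusted p under 0.05: Alas2, Cpox and Slc25a37 in females, and Alas1, Uros, Cpox and Slc25a37 in males.

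The sexes were compared within each age. At 2 weeks 0 of 9 members differed between males and females, beside 0.0332% of all genes. No member had an unadjusted p under 0.05 there and DESeq2 called 0 of 9. The differences, male over female, ran from -0.56 for Slc25a37 (SE 0.280, edgeR adjusted p = 0.320) to -0.06 for Alas1 (SE 0.0762, edgeR adjusted p = 0.687), and their median was -0.28, beside 0.01 over all genes. At 65 weeks 0 of 9 members differed, beside 0.042% of all genes, and DESeq2 again called 0. Alas1 alone had an unadjusted p under 0.05. Its 65-week male libraries, at 64.9 CPM and above, lay just above the highest female library at 64.7 CPM, with a difference of 0.37 (SE 0.143, edgeR adjusted p = 0.425). The highest Alas1 library was 65-week male replicate 2. It also held the highest Mpo of the 12 libraries, 934 CPM, and the highest Elane, 390.0 CPM, which encode proteins of neutrophil granules. Other neutrophil markers, such as S100a8, were highest in 65-week male replicate 1. So was the sum of the neutrophil markers, at 28990.1 CPM, beside 28509.6 CPM in replicate 2. The part of neutrophil RNA in the result was not tested.

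Whether the age difference itself differed between the sexes was tested with the interaction term. For this term 0 of 9 members passed, beside 0.00635% of all genes, and DESeq2 called 0. Alas1 was the only member with an unadjusted p under 0.05 (0.40, SE 0.174, edgeR adjusted p = 0.392). For the other members the term ran from 0.07 for Alas2 to 0.49 for Ppox, with SE from 0.270 to 0.349. The calls made in one sex only, such as Alas2 in females and Uros in males, were therefore not shown to differ between the sexes.

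Within groups, 8 of the 9 members varied from library to library much as the red cell markers did, least so in 65-week females. The erythroid sum was highest in replicate 3 and lowest in replicate 2 of the 2-week females, and 8 members shared each of these. In 2-week males 8 members shared its highest library, replicate 2, and 8 its lowest, replicate 1. In 65-week females, whose libraries differed least, 6 members shared each, and in 65-week males 9 shared its highest library, replicate 2, and 8 its lowest, replicate 3. Alad, Urod, Cpox, Fech and Slc25a37 ranked the libraries as the red cell markers did in all 4 groups, that is 5 of 9 members, beside 2.1% of all genes. This order was not particular to red cell markers. The sum of 8 proliferation genes shared the highest library of the erythroid sum in all 4 groups, and the lowest in all but 65-week females. Alas1 shared the highest library with the red cell markers in 1 group and the lowest in none. In 2-week females Alas1 was highest in replicate 2, the library with the lowest erythroid sum.

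**Figure D3:**
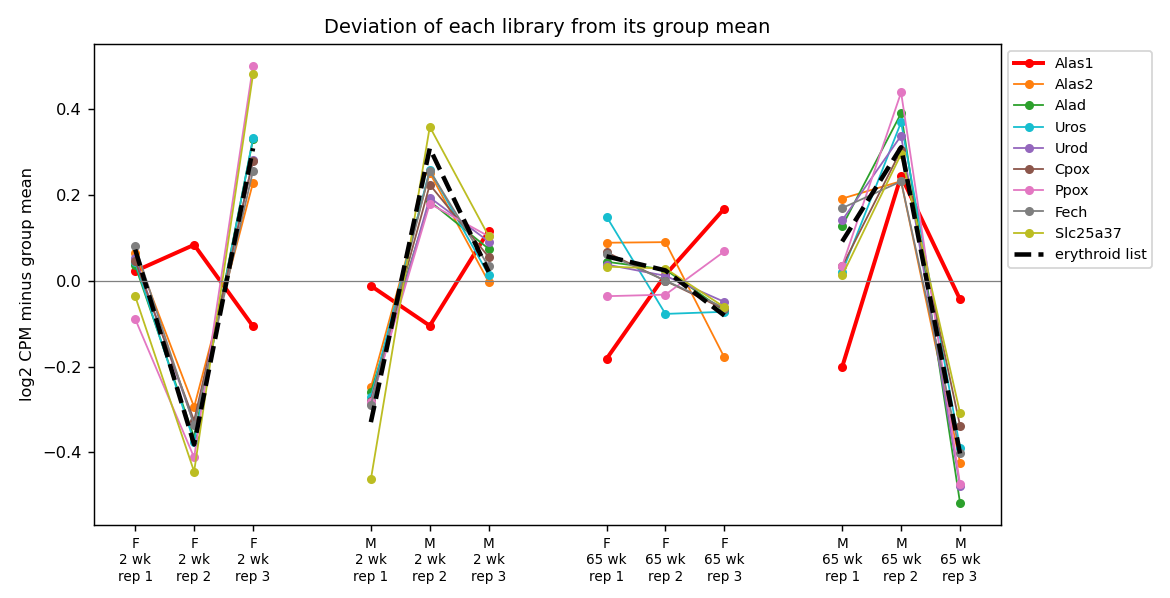
Log2 CPM of each member in each library minus the mean of its group (y axis), by group and replicate (x axis), with the summed red cell markers as the dashed line. The lines of 8 members mostly follow the dashed line, least so in 65-week females, where Ppox runs the other way. The line of Alas1 (red) departs from the dashed line and shares its lowest library in none of the 4 groups.

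Dividing each member by the erythroid sum of its own library showed how much of the spread between replicates that sum shared. Slc4a1 was the largest part of the sum, so these ratios weigh that gene most. The pooled SD within groups fell from 0.27 to 0.08 on the log2 scale for Alas2, from 0.26 to 0.05 for Cpox and from 0.27 to 0.05 for Fech. For Alad it fell from 0.32 to 0.08, for Uros from 0.30 to 0.07 and for Urod from 0.29 to 0.07. Ppox, from 0.35 to 0.14, and Slc25a37, from 0.35 to 0.11, had the largest SD after division among these 8. For Alas1 the SD grew from 0.16 to 0.36, as it did for most genes, whose median went from 0.23 to 0.42, and 13.3% of genes had a smaller SD after this division. The red cell markers were a list separate from the members, but both were measured in the same libraries. The part of red cell RNA in the levels of the members was not tested.

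**Figure D4:**
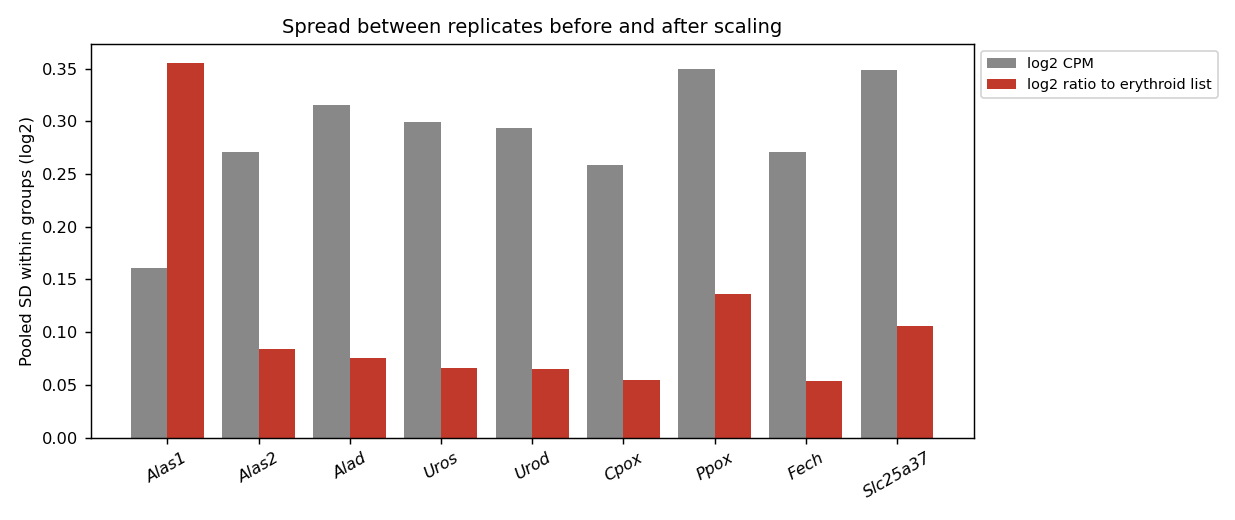
Pooled SD within the 4 groups (y axis, log2 scale) of each member, as CPM (grey) and as ratio to the summed red cell markers (red). The SD is smaller after scaling for 8 members, for example 0.05 in place of 0.27 for Fech, and larger for Alas1.

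Relative to the red cell markers, the members separated by age in another way than by CPM. Alad was at 3.70 to 4.23 CPM per 100 CPM of these markers in the 6 libraries of 2 weeks and at 2.48 to 3.13 in the 6 libraries of 65 weeks, a mean ratio of 0.695 between the ages. Urod was at 4.24 to 4.89 at 2 weeks and at 3.15 to 3.74 at 65 weeks, a mean ratio of 0.757. Cpox was at 6.13 to 6.73 at 2 weeks and at 7.11 to 7.75 at 65 weeks, a mean ratio of 1.15. In these 3 of 9 members the ages did not overlap, beside 29.2% of all genes, so the count of members is near that of all genes. Slc25a37 was at 8.64 to 12.2 at 2 weeks and at 12.2 to 14.0 at 65 weeks, with the ranges touching. Alas2, Uros, Fech, Ppox and Alas1 overlapped between the ages, with mean ratios of 0.948, 1.06, 0.962, 0.843 and 0.884.

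With edgeR run on library sizes set to the red cell markers, 1 of 9 members passed the test in females, Alad, lower by 0.61 (SE 0.181, edgeR adjusted p = 0.0122), beside 44.9% of all genes. In males 0 of 9 passed, beside 36.9% of all genes. This scaling moved the median of all genes by -0.47 in females and by -0.61 in males. Under it Uros, Cpox and Slc25a37 were above 0 in both sexes, up to 0.35 in females and 0.44 in males for Slc25a37. Alas1, Alas2, Alad, Urod, Ppox and Fech were below 0 in both, from -0.61 for Alad to -0.0050 for Alas2 in females and from -0.44 for Alad to -0.07 for Alas1 in males. The higher levels of members at 65 weeks given above are relative to TMM-scaled library totals. Relative to the red cell markers no member was called higher, but dividing by them widened the spread of most genes. The SE of Cpox was 0.168 in females and 0.244 in males under this scaling. Its ratio per library was at least 7.11 at 65 weeks and at most 6.73 at 2 weeks, and 29.2% of all genes also did not overlap. With SE of this size, the lack of calls does not show that no member was higher.

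**Figure D5:**
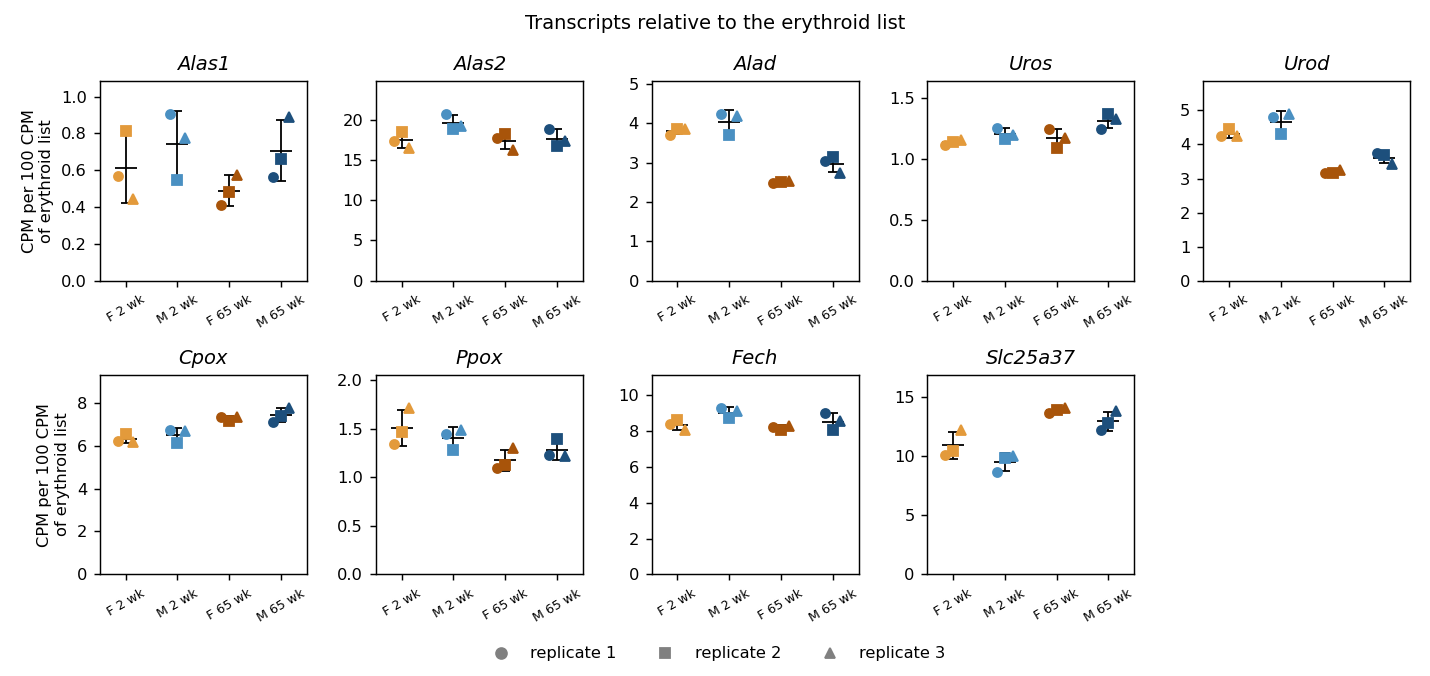
Each member as CPM per 100 CPM of the summed red cell markers (y axis, from 0 in each panel), by group (x axis; F, female; M, male; wk, weeks). Symbols are replicates, horizontal lines group means and error bars SD (n = 3); Alad and Urod lie lower and Cpox higher in the 6 libraries of 65 weeks than in the 6 of 2 weeks.

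Other genes of the pathway were taken from lists chosen with earlier results of these data known. The counts of each list stand beside those of all genes tested. Of these, 59.7% passed in females and 30.2% were higher, and in males 55.5% passed and 27% were higher. Of 15 genes of mitochondrial transport and iron-sulfur assembly, 7 were higher and 2 lower at 65 weeks in females, and 8 higher and 1 lower in males. Slc25a38, a glycine carrier of the mitochondrion, was higher by 0.76 in females (SE 0.168, edgeR adjusted p = 0.00493) and by 1.13 in males (SE 0.234, edgeR adjusted p = 0.00452). Glrx5, which takes part in iron-sulfur cluster assembly, was higher by 0.53 and 0.85 (edgeR adjusted p = 0.00740 and 0.0106). Pgrmc1, a heme-binding membrane protein, was lower, at -0.69 and -0.97 (edgeR adjusted p = 0.000462 and 0.00026).

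Of 5 genes of substrate supply, 1 was higher and 4 lower in each sex, where 59.7% of all genes passed in females and 55.5% in males. Slc6a9, a glycine transporter of the cell surface, was higher by 0.63 in females and 0.92 in males (edgeR adjusted p = 0.0237 and 0.0130). The subunits of succinyl-CoA synthetase Suclg2, at -0.66 and -0.79 (edgeR adjusted p = 0.00168 and 0.00021), and Sucla2, at -0.44 and -0.46 (edgeR adjusted p = 0.00171 and 0.00396), were lower. Of 4 genes of iron supply, 1 was lower in females, Steap3, which reduces iron in endosomes (-0.29, edgeR adjusted p = 0.0141), and 0 passed in males. Steap3 and the transferrin receptor Tfrc were named after their values were seen, and Tfrc had differences of -0.09 in females and 0.0073 in males (edgeR adjusted p = 0.639 and 0.979).

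Of 11 regulators, 4 were higher and 1 lower in females, and 6 higher and 2 lower in males. Of all genes, 59.7% passed in females and 55.5% in males. Bach1, a heme-binding repressor, was higher by 1.03 and 0.70 (edgeR adjusted p = 0.000117 and 0.000321), and Zfpm1, a cofactor of GATA1, by 0.56 and 0.99 (edgeR adjusted p = 0.0169 and 0.00850). Nfe2, a factor of red cell and platelet precursors, was higher by 0.53 and 0.84 (edgeR adjusted p = 0.0120 and 0.00825). Gata1, a master factor of red cells named after its values were seen, had differences of -0.14 and 0.28 (edgeR adjusted p = 0.474 and 0.349). Of 8 genes of heme export and breakdown, 4 were higher and 2 lower in females, and 3 higher and 2 lower in males. The heme exporter Flvcr1 was higher by 0.43 and 0.73 (edgeR adjusted p = 0.00680 and 0.00144), and Slc46a1, a folate and heme transporter, was lower, at -1.26 and -1.10 (edgeR adjusted p = 0.00217 and 0.00202). Flvcr2, a choline and heme transport protein, lay between 1.88 and 3.999 CPM at 2 weeks and between 0 and 0.998 CPM at 65 weeks.

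Of the 15 red cell markers, 6 were higher at 65 weeks in females and 9 in males, beside 30.2% and 27% of all genes, and none was lower. Their median differences were 0.45 and 0.79, beside 0.39 and 0.56 for the members. Trim10, named by the size of its change, was higher by 1.09 and 1.17 (edgeR adjusted p = 0.000522 and 0.00341), as was Trim58, by 0.92 and 1.02 (edgeR adjusted p = 0.000892 and 0.00208). Slc4a1, the largest part of the erythroid sum, did not pass, at 0.31 and 0.51 (edgeR adjusted p = 0.143 and 0.113). Among 4 globins 1 was higher in each sex, Hba-a2 (0.45 and 0.64, edgeR adjusted p = 0.0266 and 0.0422), whose near-identical copy Hba-a1 makes its counts uncertain.

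Genes with the most similar profiles over the 12 libraries were sought among 9907 protein-coding genes by the root mean square difference of centred log2 CPM. Urod had the closest neighbours, Ubac1 (0.0316) and the B-type cyclins Ccnb1 (0.0386) and Ccnb2 (0.0402). Fech was nearest to Cd24a (0.0440), Vopp1 (0.0446) and the mitochondrial transporter Abcb10 (0.0559). The nearest gene to Alas2 was Ect2 (0.0583), which acts in cell division, followed by Vopp1 (0.0612). Alad was nearest to the erythroid transcription factor Gata1 (0.0530), then to Cdca3 (0.0561) and Dtl (0.0730), which act in the cell cycle. Uros was nearest to Mylk3 (0.0490), the blood group gene Rhd (0.0582) and Iba57 (0.0687), an iron-sulfur assembly factor. The genes nearest to Cpox were Slc30a9 (0.0559), Bsdc1 (0.0580) and Dusp8 (0.0623). Those nearest to Slc25a37 were Dmtn (0.0637), a protein of the red cell skeleton, Apol8 (0.0763) and Fhdc1 (0.0769). Ppox was nearest to Birc5 (0.0888) and Kif22 (0.0973), which act in mitosis. The nearest genes to Alas1 lay farthest from their member, with Prickle3 at 0.0932, Tfe3 at 0.0997 and Cenpo at 0.106. These are descriptions over the same 12 libraries as above.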

How the data were processed

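RNA-seq of 12 libraries (paired reads of 100 nt) was analysed from the deposited counts per gene, which the authors made from aligned reads and did not normalise. The submitters' processing notes name mm9, TopHat2 and HTSeq, while the methods of the study describe GRCm39, STAR and featureCounts. Which of them made the deposited table, the annotation release and the use of strand were not resolved, nor was whether RNA was total, as the kit name says, or polyadenylated, as the label says. Red blood cell lysis is described for the isolation of cells for culture. Whether it preceded sequencing is not given in the sources used here.

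Libraries were grouped by the sex and age in their labels. GENCODE M39 held 31052 of the Ensembl IDs and lacked 6568. CPM were computed from library totals, and per kb with the canonical transcript of GENCODE M39. The quasi-likelihood F test of edgeR 4.0.16 in R 4.3.3 was run after TMM scaling on genes kept by filterByExpr (minimum count 10), with a Benjamini-Hochberg adjusted p under 0.05 over all genes as the threshold, within the 6 libraries of each sex or age, and on all 12 for the interaction. Fits were tested on simulated data. Alternatives were DESeq2 1.42.0, other scalings, filters and thresholds, the replicate number as a block, and fits without single libraries.

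All 9 members were named. Other listed genes were named, at most 3 per list, by the largest mean age difference among those called the same way in both sexes. Slc4a1, Ighm, Ebf1 and Vpreb3 were named after their values were seen. The members and lists were chosen with earlier results of these data known. The ratio to red cell markers per library, the spread within groups, the order of libraries and the transcript length used were chosen after seeing the data. Fech was not looked up among promoter windows. A few listed genes that met the naming rule are not reported here.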

Additional observations from a re-analysis of the deposited data

How the results depend on the processing

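DESeq2 called 5 of 9 members in females, in place of 3, beside 52% of all genes. A threshold of 0.01 left 1 member in females and 2 in males, in place of 4, beside 44.9% and 39.9% of all genes, and scaling to the red cell markers left 1 in females and 0 in males. Leaving out each library gave 1 to 5 members in females, 3 to 9 in males, and 0 to 0 for both sex comparisons and the interaction. Deviations of same-numbered libraries correlated between -0.355 and 0.140. Libraries of different numbers were not compared, so whether the replicate numbers of the labels pair the libraries was not settled. With the number as a replicate block, 3 members were called in females and 4 in males, beside 54.7% and 50.8% of all genes, Alas2 was lost in females (edgeR adjusted p = 0.0747) and Uros gained (edgeR adjusted p = 0.0407), and the isoenzyme ratio kept its value (exact permutation p = 0.656). Without single libraries the age difference of the log2 ratio ran from 0.0024 to 0.20. Other fits changed the sign of values that were not called: Ppox in females (-0.0041 with DESeq2, -0.10 with library totals only, -0.0014 without a low-count filter), Urod in females (0.0086 with the block) and Ppox between sexes at 65 weeks (-0.027 with the block).

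Scaling to the red cell markers reversed the age difference of Alas1 (-0.32), Alas2 (-0.0050), Ppox (-0.36) and Fech (-0.028) in females and of Alas1 (-0.073), Alas2 (-0.15), Alad (-0.44), Urod (-0.37), Ppox (-0.14) and Fech (-0.082) in males. It reversed the sex difference at 2 weeks of Alas1 (0.28), Alas2 (0.17), Alad (0.083), Uros (0.086), Urod (0.11), Cpox (0.044) and Fech (0.11), that at 65 weeks of Alas2 (0.022), Cpox (0.028) and Fech (0.058), and the interaction of Alas2 (-0.14), Cpox (-0.016) and Fech (-0.054). By its construction, this scaling moves all genes by the change of these markers, with resulting medians of all genes of 0.35 and 0.19 for the sex differences and -0.14 for the interaction. Without single libraries, the sign changed for the age difference in females of Ppox (-0.20 to 0.27) and Urod (-0.22 to 0.075), for the sex difference at 65 weeks of Alad (-0.057 to 0.38), Uros (-0.15 to 0.25), Urod (-0.10 to 0.30), Ppox (-0.22 to 0.25), Alas2 (-0.21 to 0.10), Cpox (-0.26 to 0.076) and Fech (-0.17 to 0.13), and for the interaction of Alas2 (-0.054 to 0.29). The sex comparison at 65 weeks called 830 genes without 65-week male replicate 3, in place of 6, and the interaction 750, in place of 1, but 0 members. The same sex comparison called 254 genes with all 12 libraries in 1 model and 105 without a low-count filter, with 0 members. DESeq2 called 417, 361 and 353 genes for sex at 2 weeks, sex at 65 weeks and the interaction. With lengths that count every annotated exon, the order per length kept Alas2, Slc25a37 and Cpox highest and Alas1 lowest, while Fech and Urod, and Ppox and Uros, changed places in some groups. All members were above 50 CPM in every library, and 3 libraries per group limit the precision.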
